A study of Caenorhabditis elegans with 18 samples.

Results

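Dosage compensation equalises the output of the X chromosome between XX hermaphrodites and XO males of the nematode Caenorhabditis elegans, and it shares its switch with sex determination. The 10 genes described here are that switch (xol-1), the sdc genes (sdc-1, sdc-2, sdc-3) and further subunits of the dosage compensation complex (dpy-21, dpy-26, dpy-27, dpy-28, dpy-30, mix-1). The subunit gene capg-1 is not among them. They were taken by name, by a rule that uses no measured value, from the 45461 rows of each deposited gene table, and all 10 passed the filter on low counts. The set was chosen with earlier results of these data known. Each is a protein-coding gene, and xol-1, sdc-1 and sdc-2 are themselves X-linked.

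The study measured poly(A)-selected RNA of the strain MT23643, which carries the allele hira-1(gk835598) and is written hira-1(-), and of the wild-type strain N2. HIRA is the chaperone that places the histone variant H3.3 into chromatin outside replication. The values below come from 8 libraries, with 2 each of hira-1(-) adults, N2 adults, hira-1(-) larvae of the L4 stage and N2 L4 larvae, all grown at 20°C on E. coli OP50. Not analysed here were the libraries of L1 larvae and those with replicate number 3. The labels give strain and stage but no tissue, age in hours or sex. They do not say whether replicates were separate cultures, so the spread behind each p-value is that of these libraries and may be technical.

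As background, XOL-1 is made in XO embryos, sets the male fate and keeps SDC-2 inactive. In XX embryos X-linked signal proteins keep xol-1 off, and SDC-2, with SDC-3 and DPY-30, then loads the complex onto X and represses the male-promoting gene her-1. The core of the complex is a condensin, a ring of SMC proteins with their partners, in which DPY-27 stands in the place that SMC-4 takes in the mitotic condensins. MIX-1, DPY-26, DPY-28 and CAPG-1 serve both this complex and condensin I, while DPY-21 is a demethylase of histone H4 lysine 20 and DPY-30 is also a subunit of the COMPASS histone H3 lysine 4 methyltransferases. The complex works on X in somatic cells and not in the germ line.

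The libraries held 26010307 to 31174599 estimated counts, and each replicate pair varied beyond counting error, with a chi-square of 5.76 to 19.2 times its degrees of freedom. Levels of single genes are given as CPM, the count scaled to the size of the library. The targeted gene hira-1 had 40.7 and 40.0 CPM in hira-1(-) adults, against 108 and 109 CPM in N2 adults (log2 fold change -1.43, SE 0.06, adjusted p = 2e-09). At L4 it had 23.7 and 25.3 CPM in hira-1(-), against 37.4 and 32.9 CPM in N2 (log2 fold change -0.52, SE 0.07, adjusted p = 3.3e-05). In the design text of the series the mutant is a null. The transcript was lower in both mutant groups and present in every library, so its level checks the labels only as a lower transcript. Whole animals were sequenced, and fewer cells of a type cannot be told apart from less RNA per cell in any result below.

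The transcript levels of the 10 genes span a wide range. On the per-length scale of the deposited FPKM values, dpy-30 was the highest in all 4 groups, at 227 and 231 FPKM in hira-1(-) adults, 228 and 227 FPKM in N2 adults, 165 and 154 FPKM in hira-1(-) L4 and 146 and 153 FPKM in N2 L4. The genes mix-1, dpy-26 and dpy-28 followed in adults and in hira-1(-) L4, and the 3 sdc genes and xol-1 were the lowest in every group. The lowest level of a library was that of xol-1 at 0.44 FPKM in an N2 adult library. Neighbours in the order whose libraries overlapped were dpy-21 and dpy-27 in N2 adults and in hira-1(-) L4, and xol-1 and sdc-2 in N2 L4. In hira-1(-) adults mix-1 (38.5 and 38.3 FPKM) and dpy-26 (38.3 and 38.1 FPKM) stood next to each other with almost no gap.

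**Figure D1:**
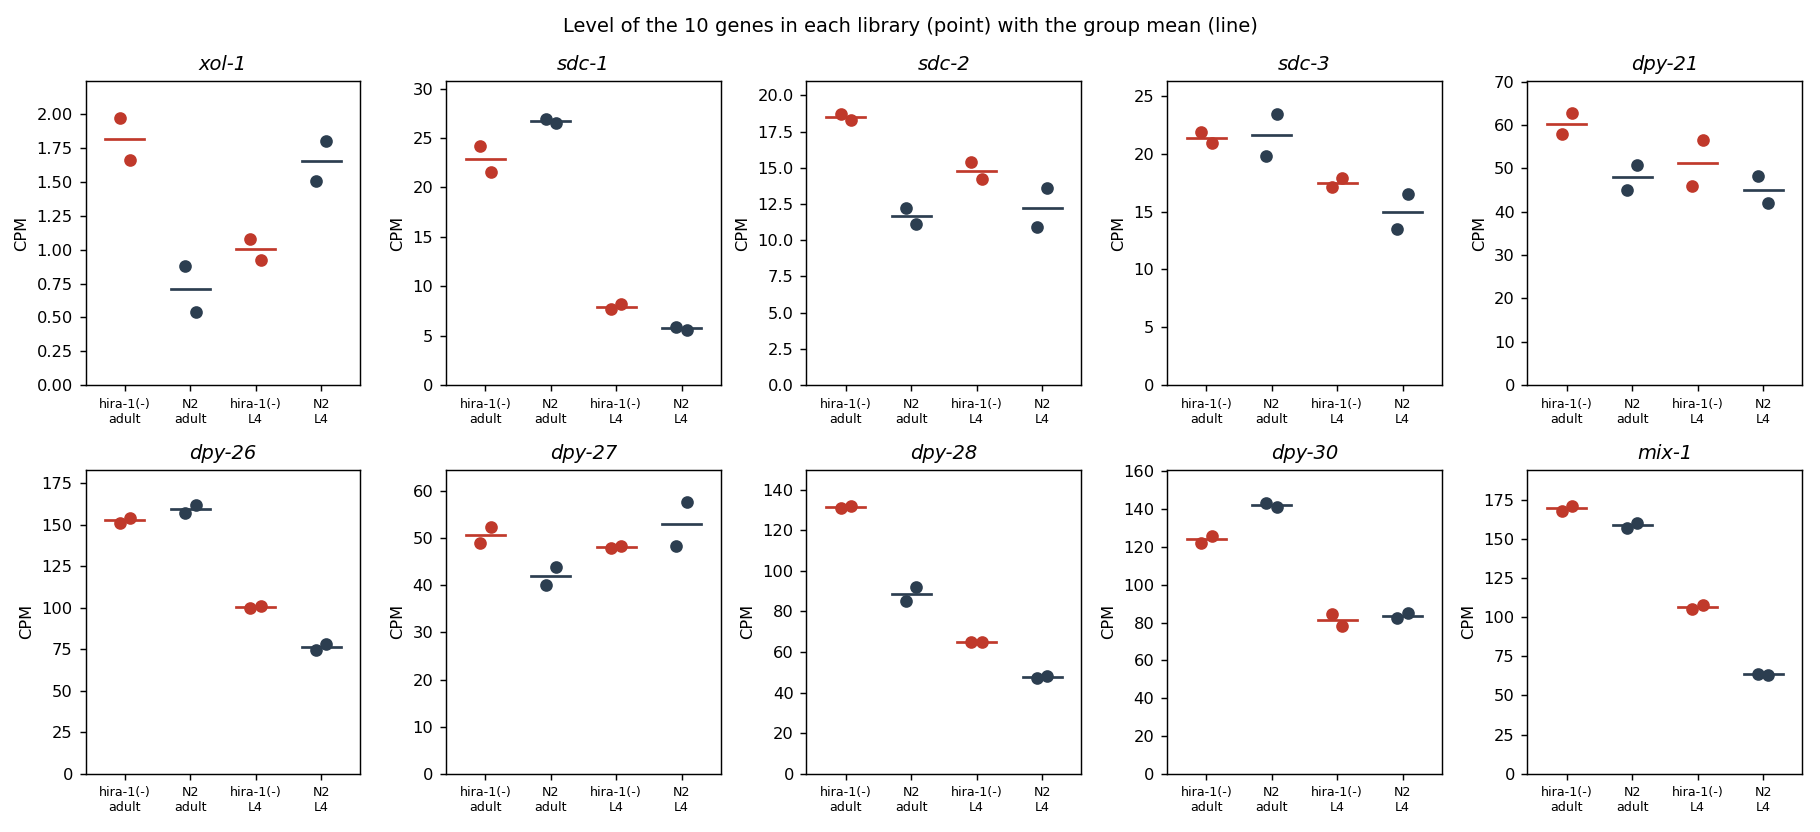
CPM of the 10 genes (vertical axes from 0, each with its own scale) in hira-1(-) adults, N2 adults, hira-1(-) L4 and N2 L4, with each library as a point and the mean of the group as a line. The order of the genotypes of xol-1 turns between adults and L4, and mix-1 lies at 105 and 108 CPM in hira-1(-) L4, above 63.9 and 62.9 CPM in N2 L4.

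The first question was which of these genes differ between hira-1(-) and N2. In adults 5 of the 10 were higher in hira-1(-) and 1 was lower by edgeR's quasi-likelihood test (Benjamini-Hochberg adjusted p below 0.05), while of all 16770 genes tested 55.1% were called, 28.6% as higher and 26.5% as lower. At L4 4 were higher and 1 lower, and of all genes 58.0% were called, 35.5% as higher and 22.6% as lower. The genotype difference itself differed between adults and L4 for 5 members, larger in adults for 2 and smaller for 3, where 50.4% of all genes were called, 20.7% as larger and 29.7% as smaller. The numbers of members called lie near those shares, so the counts themselves say nothing particular to these genes. Their median log2 fold change was 0.18 in adults and 0.25 at L4, and that of all genes was 0.03 and 0.10. The direction of small changes depends on the scaling, since with library totals in place of TMM scaling the median of all genes was 0.24 at both stages, and the higher share of the calls went to 75.6% in adults (51.9% with TMM) and to 72.3% at L4 (61.1% with TMM).

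**Figure D2:**
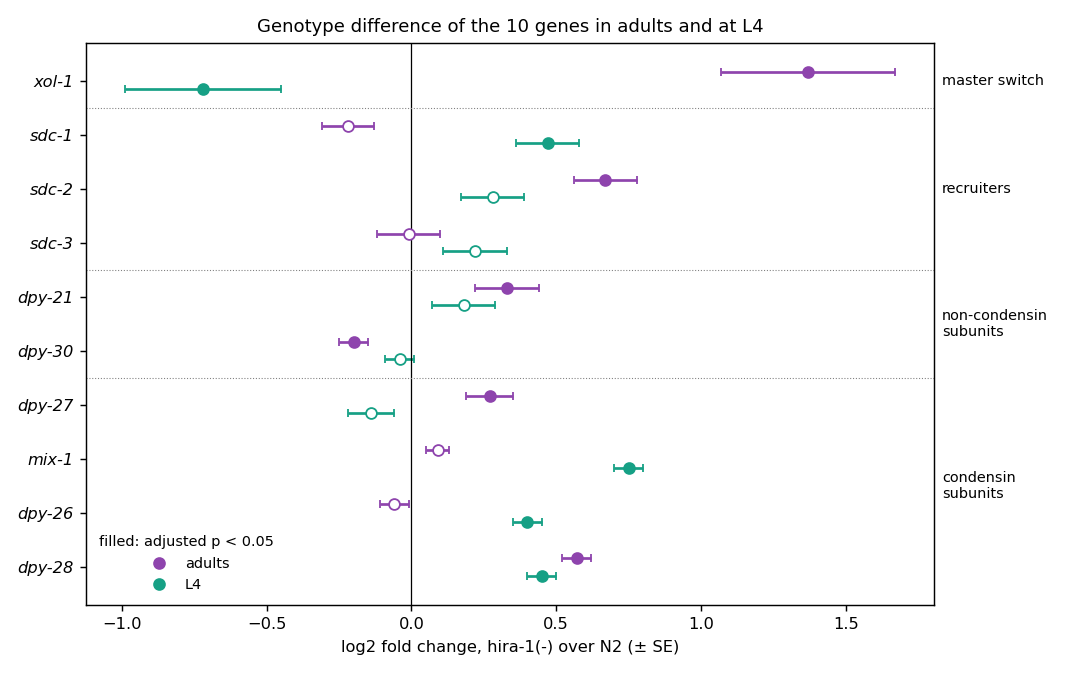
Log2 fold change of hira-1(-) over N2 with its SE for the 10 genes in adults (purple) and at L4 (green), by role, where a filled point has an adjusted p below 0.05. The label of recruiters stands for the sdc genes, and dpy-30 is shown with the non-condensin subunits. The points of xol-1 lie at 1.37 in adults and -0.72 at L4, and sdc-2 and dpy-28 lie above 0 at both stages.

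The master switch xol-1 differed in opposite directions at the 2 stages. It had 1.97 and 1.66 CPM in hira-1(-) adults, against 0.877 and 0.538 CPM in N2 adults. Both mutant adults lay above both N2 adults, a 2.59-fold difference (log2 fold change 1.37, SE 0.30, adjusted p = 0.0017). In L4 larvae it had 1.08 and 0.925 CPM in hira-1(-), against 1.51 and 1.80 CPM in N2. Here both mutant libraries lay below both N2 libraries (log2 fold change -0.72, SE 0.27, adjusted p = 0.036). The difference between the stages was itself past the threshold (difference of log2 fold changes, adults minus L4, 2.09, SE 0.40, adjusted p = 0.00081).

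The xol-1 values rest on few reads, namely 53 and 44 counts in hira-1(-) adults, 21 and 15 in N2 adults, 32 and 28 in hira-1(-) L4 and 42 and 49 in N2 L4. The adult difference passed under all 16 alternatives and the stage difference under all 15. The L4 difference did not pass with library totals (adjusted p = 0.08), with DESeq2 (adjusted p = 0.21) or with limma on the deposited values (adjusted p = 0.056). It was also lost when hira-1(-) L4 replicate 1 (adjusted p = 0.077), hira-1(-) L4 replicate 2 (adjusted p = 0.18) or N2 L4 replicate 2 (adjusted p = 0.1) was left out. XOL-1 is known to act in early embryos, and hermaphrodite adults can hold embryos, so 13 zygotic genes of the early embryo are given beside it. Of the 7 that were tested, 6 were higher in hira-1(-) adults and none lower, and at L4 none was higher and 1 lower. Over all genes 28.6% were higher and 26.5% lower in adults, and 35.5% and 22.6% at L4. The 7 are those that passed the filter on low counts, which partly sets the number higher. For tbx-37 and tbx-38 both libraries reached its minimum count of 10 only in hira-1(-) adults. There tbx-37 had 33 and 19.5 counts, against 7 and 4 in N2 adults. The 13 genes summed to 22.1 to 24.6 FPKM in hira-1(-) adults, against 10.3 to 10.7 FPKM in N2 adults, and to 11.2 to 12.5 FPKM in hira-1(-) L4, against 12.5 to 14.4 FPKM in N2 L4. At L4 nearly all of the sum is elt-7, an intestinal transcription factor that is also expressed after embryogenesis, with 9.88 and 11.1 FPKM in hira-1(-) and 11.6 and 13.1 FPKM in N2. It was the gene called lower at L4. In hira-1(-) L4 sdz-23, med-1 and hlh-27 were at 0, in N2 L4 sdz-23 and hlh-27, and in N2 adults med-2. Of 6 genes of the male soma, the 4 tested gave no call in adults, with sums of 1.26 to 2.11 FPKM in hira-1(-) and 1.26 to 2.10 FPKM in N2, and mab-23 at 0 in N2 adults. At L4 1 was higher and 1 lower, with sums of 9.20 to 10.2 FPKM in hira-1(-) and 10.7 to 12.7 FPKM in N2. The higher one was dmd-3, with 20 and 26 counts in hira-1(-) L4, against 3 and 10 in N2 L4. Only in hira-1(-) L4 did both libraries of dmd-3 reach the minimum count of 10. It was thus tested only through the group where it is high. The part of embryos or males in the xol-1 values was not tested.

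Among the genes that recruit the complex, sdc-2 was higher in mutant adults. The SDC-2 protein is the hermaphrodite-specific factor that starts loading on X. Its transcript had 18.7 and 18.3 CPM in hira-1(-) adults, against 12.2 and 11.1 CPM in N2 adults. The genotypes were clearly apart, by 1.60-fold (log2 fold change 0.67, SE 0.11, adjusted p = 0.0003, and past the threshold under all 16 alternatives). At L4 it had 15.4 and 14.2 CPM in hira-1(-), against 10.9 and 13.6 CPM in N2, which did not pass (log2 fold change 0.28, SE 0.11, adjusted p = 0.054). It did pass at L4 with library totals (adjusted p = 0.0066) and without N2 L4 replicate 2 (adjusted p = 0.025). The stages did not differ by the test (difference 0.40, SE 0.16, adjusted p = 0.057), although they did with library totals (adjusted p = 0.029), with either other filter on low counts (adjusted p = 0.038 and 0.018), and without N2 L4 replicate 1 (adjusted p = 0.0016) or N2 adult replicate 1 (adjusted p = 0.038). On the opposite strand the WBcel235 annotation places the antisense RNA gene anr-16 over 12.8% of the exon bases of sdc-2, and with the strand setting of the counting not given in the sources used here their reads may be mixed.

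The zinc finger gene sdc-1 was higher in mutant L4 larvae and gave no call in adults. It had 24.2 and 21.6 CPM in hira-1(-) adults, against 26.9 and 26.5 CPM in N2 adults, and 7.71 and 8.16 CPM in hira-1(-) L4, against 5.91 and 5.55 CPM in N2 L4. On the CPM scale the libraries did not overlap at either stage, although the adult FPKM values did. The L4 difference passed (log2 fold change 0.47, SE 0.11, adjusted p = 0.0032) while the adult difference did not (log2 fold change -0.22, SE 0.09, adjusted p = 0.056). The difference between the stages passed (-0.69, SE 0.15, adjusted p = 0.0016) and did so under all 15 alternatives. The L4 call was lost without N2 L4 replicate 2 (adjusted p = 0.068). The adult difference depends on the scaling, since it was -0.01 with library totals (adjusted p = 0.9) and with limma on the deposited values (adjusted p = 0.93). It was past the threshold with RLE scaling (adjusted p = 0.018), with only the adult libraries fitted (adjusted p = 0.039), and when N2 L4 replicate 1 (adjusted p = 0.017), N2 L4 replicate 2 (adjusted p = 0.016) or hira-1(-) adult replicate 1 (adjusted p = 0.046) was left out.

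The third sdc gene, sdc-3, a zinc finger gene that acts in both sex determination and dosage compensation, gave no call. It had 21.9 and 20.9 CPM in hira-1(-) adults, against 19.8 and 23.4 CPM in N2 adults, and 17.1 and 17.9 CPM in hira-1(-) L4, against 13.5 and 16.5 CPM in N2 L4. The mutant adults fell between the N2 adults (log2 fold change -0.01, SE 0.11, adjusted p = 0.93; log2 fold change 0.19 with library totals), and the L4 value was 0.22 (SE 0.11, adjusted p = 0.11). At L4 it passed with library totals (0.36, adjusted p = 0.015) and had the other sign without N2 L4 replicate 1 (-0.03). The test between the stages did not pass (-0.24, SE 0.16, adjusted p = 0.23).

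The condensin subunits fell into different patterns at L4. The gene mix-1, which encodes an SMC subunit of every condensin of the worm, had the member difference at L4 with the lowest adjusted p, with 105 and 108 CPM in hira-1(-) against 63.9 and 62.9 CPM in N2. The genotypes were far apart relative to their replicates, a 1.68-fold difference (log2 fold change 0.75, SE 0.05, adjusted p = 3.4e-08). The adult libraries had 168 and 171 CPM in hira-1(-), against 157 and 160 CPM in N2, and this difference did not pass (log2 fold change 0.09, SE 0.04, adjusted p = 0.097; 0.30 and adjusted p = 0.00011 with library totals; 0.29 and adjusted p = 0.0016 with limma on the deposited values). The stages differed (-0.65, SE 0.06, adjusted p = 3.6e-06).

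The kleisin gene dpy-26, whose product closes the condensin ring, had 99.6 and 101 CPM in hira-1(-) L4, against 74.4 and 77.9 CPM in N2 L4. All mutant L4 libraries lay above the N2 ones (log2 fold change 0.40, SE 0.05, adjusted p = 1.3e-05). Its adult libraries had 151 and 154 CPM in hira-1(-), against 157 and 162 CPM in N2 (log2 fold change -0.06, SE 0.05, adjusted p = 0.27). That small adult value became -0.13 with RLE scaling (adjusted p = 0.048) and 0.14 with library totals (adjusted p = 0.027). The stages differed (-0.46, SE 0.07, adjusted p = 9.4e-05).

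The HEAT repeat gene dpy-28 was higher in hira-1(-) at both stages. It had 131 and 132 CPM in hira-1(-) adults, against 85 and 92 CPM in N2 adults, a 1.48-fold difference (log2 fold change 0.57, SE 0.05, adjusted p = 1.1e-06). At L4 it had 65 and 65 CPM in hira-1(-), against 47.2 and 48.2 CPM in N2 (log2 fold change 0.45, SE 0.05, adjusted p = 1.1e-05). No libraries overlapped between the genotypes, and both calls held under all 16 alternatives. The test between the stages did not pass (0.12, SE 0.07, adjusted p = 0.18), although it did with a minimum of 1 CPM in 3 libraries (0.23, adjusted p = 0.03).

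The SMC gene dpy-27, the condensin subunit used for dosage compensation alone, did not pass at L4. It had 47.9 and 48.4 CPM in hira-1(-) L4, against 48.4 and 57.8 CPM in N2 L4, and the libraries met at 48.4 CPM (log2 fold change -0.14, SE 0.08, adjusted p = 0.15). That value depends on the libraries and settings. Without N2 L4 replicate 1 it was -0.38 (adjusted p = 0.00047), and with limma on the deposited values it was 0.00 (adjusted p = 0.99). It also passed as lower without N2 adult replicate 1 (-0.25, adjusted p = 0.022), with a minimum of 1 CPM in 3 libraries (-0.24, adjusted p = 0.024) and with the L4 libraries alone (-0.24, adjusted p = 0.046). In adults it had 48.9 and 52.5 CPM in hira-1(-), against 40.0 and 43.8 CPM in N2, with no overlap (log2 fold change 0.27, SE 0.08, adjusted p = 0.013). The adult call was lost with DESeq2 (adjusted p = 0.15) and without hira-1(-) adult replicate 2 (adjusted p = 0.11) or N2 adult replicate 1 (adjusted p = 0.23). The difference between the stages was 0.41 (SE 0.11, adjusted p = 0.0095; adjusted p = 0.06 with DESeq2).

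Condensin subunits that are no part of the 10 were taken from a fixed list of 5, namely smc-4, capg-1, capg-2, hcp-6 and kle-2. Over all genes 35.5% were higher and 22.6% lower at L4, and 28.6% and 26.5% in adults. At L4 all 5 were higher in hira-1(-) and none lower (median log2 fold change 0.47, against 0.10 over all genes). The SMC gene smc-4, the counterpart of dpy-27 in the mitotic condensins, had 153 and 159 CPM in hira-1(-) L4, against 87.2 and 92.4 CPM in N2 L4 (log2 fold change 0.80, SE 0.05, adjusted p = 3.5e-08). Other L4 log2 fold changes were 0.70 for hcp-6 and 0.47 for kle-2, both of condensin II, 0.40 for capg-2 of condensin II and 0.35 for capg-1. In adults none of the 5 was higher and 2 were lower (median -0.02), namely capg-2 (-0.22, adjusted p = 0.0034) and capg-1 (-0.16, adjusted p = 0.011), both dependent on the scaling. With library totals they were -0.01 for capg-2 (adjusted p = 0.89) and 0.05 for capg-1 (adjusted p = 0.41). Without hira-1(-) adult replicate 2 both calls were lost (adjusted p = 0.051 for capg-2 and 0.086 for capg-1), and that of capg-1 also without N2 adult replicate 2 (adjusted p = 0.05). For all 5 the difference between the stages passed as lower in adults, from -0.78 for smc-4 to -0.50 for kle-2.

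**Figure D3:**
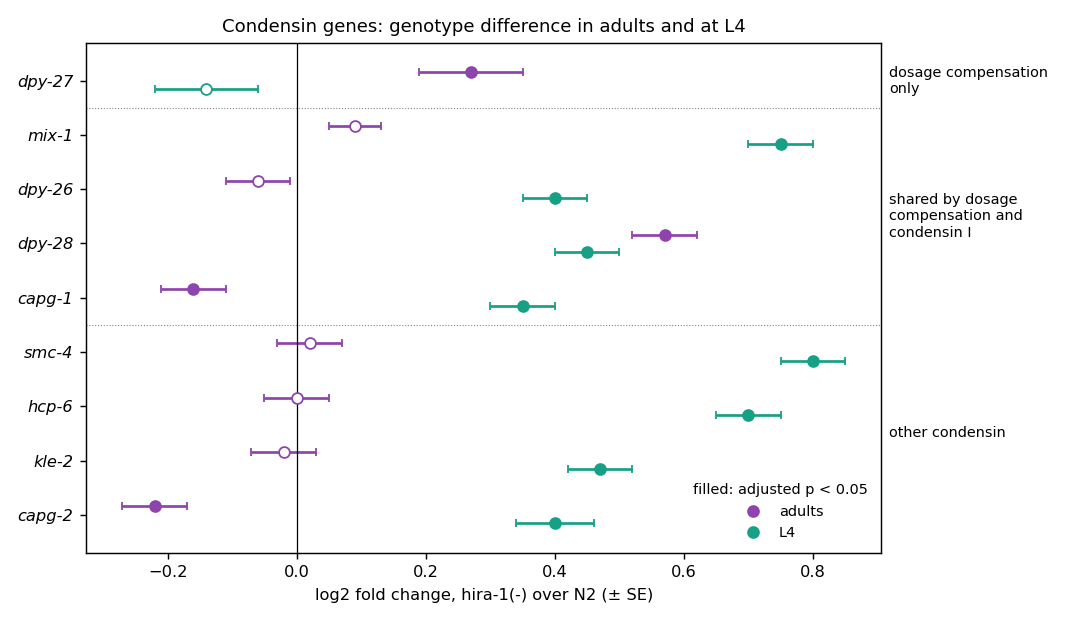
Log2 fold change of hira-1(-) over N2 with its SE for the 9 condensin genes in adults (purple) and at L4 (green), with filled points for adjusted p below 0.05. At L4 the other 8 genes lie between 0.35 and 0.80, and dpy-27 lies at -0.14.

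Because FPKM values are per length, subunits can be set against each other within a library. The ratio of smc-4 to dpy-27 was 5.58 and 5.19 in hira-1(-) adults, 6.63 and 6.23 in N2 adults, 3.08 and 3.17 in hira-1(-) L4, and 1.73 and 1.54 in N2 L4. The L4 genotypes were therefore far apart, and the mutant larvae lay between the N2 larvae and the N2 adults. The ratio of mix-1 to dpy-27 had the same order of groups, at 3.71 and 3.50 in hira-1(-) adults, 4.24 and 3.95 in N2 adults, 2.36 and 2.40 in hira-1(-) L4, and 1.42 and 1.17 in N2 L4. Between mix-1 and smc-4, by contrast, the ratio stayed within 0.634 and 0.820 over all 8 libraries. The ratio of dpy-28 to dpy-27 was 2.60 and 2.43 in hira-1(-) adults and 2.06 and 2.04 in N2 adults, so for this pair the mutant adults were the highest group. These ratios were not tested.

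**Figure D4:**
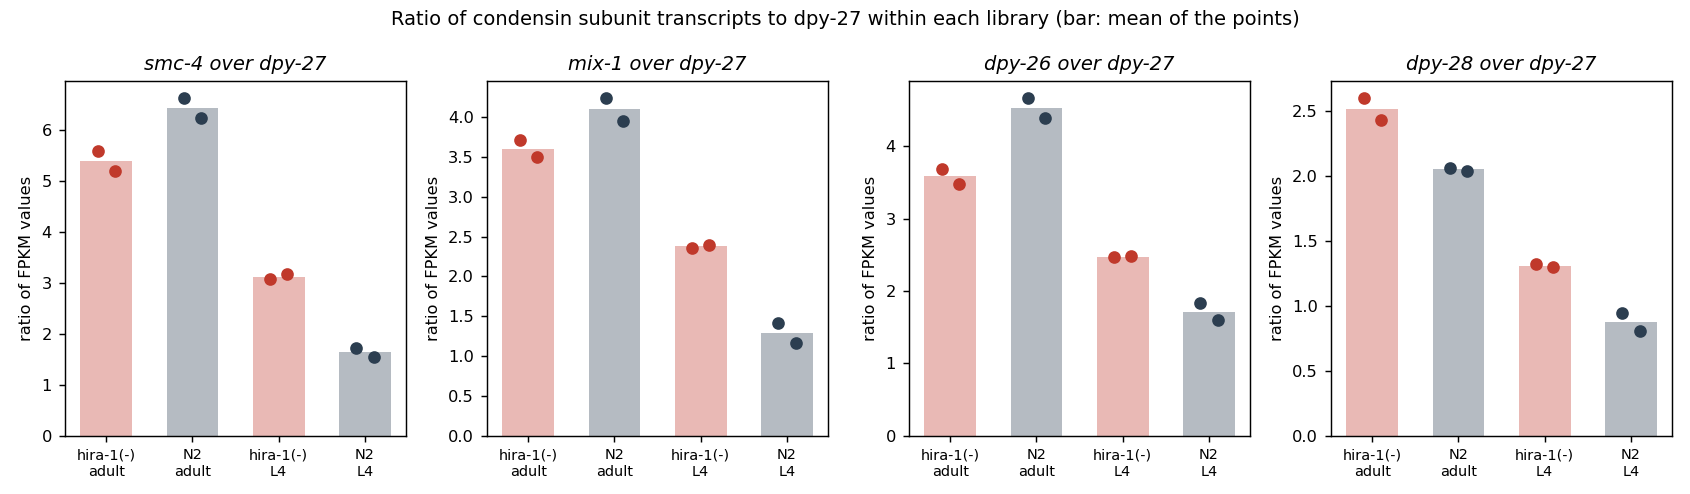
Ratio of the FPKM of smc-4, mix-1, dpy-26 and dpy-28 to that of dpy-27 within each library (points) and its mean (bars from 0) in hira-1(-) adults, N2 adults, hira-1(-) L4 and N2 L4. In all 4 panels both hira-1(-) L4 libraries lie above both N2 L4 libraries and below all adult libraries.

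Of the subunits outside the condensin core, dpy-21 had 57.8 and 62.7 CPM in hira-1(-) adults, against 45.0 and 50.8 CPM in N2 adults. The libraries did not overlap and the difference passed (log2 fold change 0.33, SE 0.11, adjusted p = 0.032). The call did not hold with RLE scaling (adjusted p = 0.079), without a filter (adjusted p = 0.075), with DESeq2 (adjusted p = 0.086), or without hira-1(-) adult replicate 1 or 2 (adjusted p = 0.051 and 0.15) or N2 adult replicate 1 (adjusted p = 0.26). In L4 larvae it had 45.8 and 56.4 CPM in hira-1(-), against 48.1 and 42 CPM in N2, with overlapping libraries (log2 fold change 0.18, SE 0.11, adjusted p = 0.19; difference between the stages 0.15, SE 0.16, adjusted p = 0.47). The L4 difference passed with library totals (0.32, adjusted p = 0.025) and when hira-1(-) L4 replicate 1 was left out (0.32, adjusted p = 0.021), and was -0.01 without N2 L4 replicate 2. The enzymes SET-1 and SET-4 methylate histone H4 lysine 20, the residue that DPY-21 demethylates. Both genes were higher at L4 (log2 fold change 0.72 for set-1 and 0.70 for set-4, adjusted p = 2.1e-06 and 2.6e-06). In adults set-1 was higher (0.21, adjusted p = 0.015). The set-1 call did not hold with RLE scaling (adjusted p = 0.095), with DESeq2 (adjusted p = 0.27), and without hira-1(-) adult replicate 1 (adjusted p = 0.27) or N2 adult replicate 1 or 2 (adjusted p = 0.15 and 0.091). In the same animals set-4 was lower (-0.20, adjusted p = 0.018), but its value was 0.01 with library totals and with limma, and the call was lost without hira-1(-) adult replicate 2 (adjusted p = 0.15) or N2 adult replicate 2 (adjusted p = 0.094).

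The gene dpy-30 had 122 and 126 CPM in hira-1(-) adults, against 143 and 141 CPM in N2 adults. It was the only member called lower there (log2 fold change -0.20, SE 0.05, adjusted p = 0.005), but the direction depends on the scaling, since it was 0.01 with library totals (adjusted p = 0.93) and the deposited FPKM values of the genotypes overlap. It was also lost without hira-1(-) adult replicate 1 (adjusted p = 0.052). At L4 it had 84.5 and 78.3 CPM in hira-1(-), against 82.2 and 85.2 CPM in N2, with overlapping libraries (log2 fold change -0.04, SE 0.05, adjusted p = 0.54, and 0.10 with library totals). It passed as lower at L4 with a minimum of 1 CPM in 3 libraries (-0.14, adjusted p = 0.039) and without N2 L4 replicate 1 (-0.18, adjusted p = 0.031) or N2 adult replicate 1 (-0.15, adjusted p = 0.035). The test between the stages did not pass (-0.16, SE 0.07, adjusted p = 0.085), although it did with RLE scaling (adjusted p = 0.034) and when hira-1(-) L4 replicate 2 was left out (adjusted p = 0.049). Of 7 genes listed as partners of dpy-30 in COMPASS and the related MLL complexes, 5 were higher at L4 and none lower (median 0.41). The higher ones include utx-1, close to the threshold (0.24, adjusted p = 0.047). In adults 2 of the 7 were higher and 1 lower (median -0.01). The shares over all genes were 35.5% higher and 22.6% lower at L4, and 28.6% and 26.5% in adults. The methyltransferase gene set-2 was higher at both stages (log2 fold change 0.36 in adults, adjusted p = 0.00027, and 0.41 at L4, adjusted p = 8.1e-05).

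The second question was how the genes differ between adults and L4 larvae of each genotype. These comparisons share libraries with those of the genotypes. In N2, 6 of the 10 were higher in adults and 2 lower, and of all genes 81.6% were called, 38.2% as higher and 43.4% as lower. In hira-1(-), 8 were higher and none lower, and of all genes 74.4% were called, 36.0% as higher and 38.4% as lower. The gene sdc-1 differed most, with log2 fold changes of adults over L4 of 1.53 in hira-1(-) (SE 0.10) and 2.22 in N2 (SE 0.10). The shared condensin genes were also higher in adults of both genotypes, with mix-1 at 0.67 in hira-1(-) and 1.33 in N2, dpy-26 at 0.61 and 1.07, and dpy-28 at 1.01 and 0.89, all past the threshold, as was dpy-30 at 0.61 and 0.77. For sdc-3 the N2 value was 0.53 (adjusted p = 0.00073; adjusted p = 0.073 with limma on the deposited values). In N2 sdc-2 had -0.08 and dpy-21 0.09, neither past the threshold.

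The genes xol-1 and dpy-27 were the members that were lower in N2 adults than in N2 L4 larvae. For xol-1 the log2 fold change of adults over L4 was 0.85 in hira-1(-) (SE 0.27, adjusted p = 0.012) and -1.24 in N2 (SE 0.30, adjusted p = 0.0017). For dpy-27 it was 0.07 in hira-1(-) (SE 0.08, adjusted p = 0.42) and -0.34 in N2 (SE 0.08, adjusted p = 0.0019; adjusted p = 0.056 with DESeq2). The xol-1 value in hira-1(-) was lost with DESeq2 (adjusted p = 0.087) and when hira-1(-) L4 replicate 2 (adjusted p = 0.08) or hira-1(-) adult replicate 1 (adjusted p = 0.078) was left out. The calls of sdc-2 (0.32, adjusted p = 0.018) and sdc-3 (0.29, adjusted p = 0.03) in hira-1(-) were lost with library totals (adjusted p = 0.079 and 0.13), with limma on the deposited values (adjusted p = 0.24 and 0.28), and without hira-1(-) adult replicate 1 (adjusted p = 0.075 and 0.13) or 2 (adjusted p = 0.053 and 0.058). So were they when hira-1(-) L4 replicate 2 was left out (adjusted p = 0.13 and 0.071), and that of sdc-3 also without hira-1(-) L4 replicate 1 (adjusted p = 0.14).

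Genes upstream of xol-1 count X chromosomes against autosomes. In this list of 5, the 3 X-linked signal genes sex-1, fox-1 and ceh-39 repress xol-1 and the autosomal genes sea-1 and sea-2 activate it. At L4 2 were higher in hira-1(-) and none lower, and in adults 2 were higher and none lower. Over all genes 35.5% were higher and 22.6% lower at L4, and 28.6% and 26.5% in adults. The counts of this list lie near those shares and say nothing particular to it. The homeobox gene ceh-39 had 3.25 and 4.10 CPM in hira-1(-) L4, against 1.66 and 1.54 CPM in N2 L4, a 2.29-fold difference (SE of the log2 fold change 0.17, adjusted p = 5.9e-05). The T-box gene sea-1 had 11 and 12 counts in hira-1(-) L4 and none in either N2 L4 library, so with a floor of 3 counts per library it was at least 3.52-fold higher. In adults it had 16.3 and 17.5 CPM in hira-1(-) and 17.7 and 16.4 CPM in N2. The zinc finger gene sea-2 had 45.5 and 55.8 CPM in hira-1(-) adults, against 27.3 and 25.2 CPM in N2 adults (log2 fold change 0.95, SE 0.23, adjusted p = 0.017), a call lost without hira-1(-) adult replicate 2 (adjusted p = 0.065) or N2 adult replicate 1 or 2 (adjusted p = 0.075 and 0.099). The nuclear receptor gene sex-1 was also higher in mutant adults (0.32, adjusted p = 0.02; adjusted p = 0.051 with RLE scaling, 0.17 with DESeq2, 0.17 without hira-1(-) adult replicate 1 and 0.15 without N2 adult replicate 2).

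Downstream, HER-1 is a secreted protein that promotes male fate and whose gene is repressed by the SDC proteins. The transcript her-1 had 38 and 31 counts in hira-1(-) adults, against 7 and 4 counts in N2 adults. As CPM these are 1.41 and 1.17 in hira-1(-), against 0.292 and 0.144 in N2, a difference that passed (log2 fold change 2.57, SE 0.44, adjusted p = 0.0003) and kept its call under the 15 alternatives that gave a value. Only in hira-1(-) adults did both libraries exceed the minimum count of 10 of the filter. The gene her-1 was thus tested only through the group where it is high, and it was not tested with a minimum of 1 CPM in 3 libraries. In L4 larvae it had 5 and 8 counts in hira-1(-), against 10 and 6 counts in N2, with overlapping libraries (log2 fold change -0.41, SE 0.55, adjusted p = 0.54). The stages differed (2.99, SE 0.73, adjusted p = 0.0042). In the same adult libraries 6 of the 7 tested early embryo genes were higher, a number that the filter on low counts partly sets. All 13 of that list summed to 22.1 to 24.6 FPKM in hira-1(-) and 10.3 to 10.7 FPKM in N2. The part of embryos in the her-1 values was not tested.

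Of all 7 sex determination genes downstream of the sdc genes, 1 was higher and 2 were lower in mutant adults, and 3 were higher and 1 lower at L4. Over all genes 28.6% were higher and 26.5% lower in adults, and 35.5% and 22.6% at L4. These counts too lie near the shares and say nothing particular to the list. The gene fem-3, which promotes male fate and sperm formation, had 19.2 and 18.6 CPM in hira-1(-) L4, against 7.92 and 7.61 CPM in N2 L4 (log2 fold change 1.28, SE 0.08, adjusted p = 3.5e-08). Both the phosphatase gene fem-2 (0.30, adjusted p = 0.0002) and the protease gene tra-3 (0.36, adjusted p = 0.00055) were higher at L4 as well. The terminal regulator tra-1, which sets female fate in the soma, was lower at L4, with 34.9 and 45.3 CPM in hira-1(-) against 55.8 and 49.5 CPM in N2 (log2 fold change -0.39, SE 0.12, adjusted p = 0.024). The tra-1 call did not hold with library totals (adjusted p = 0.088), with limma on the deposited values (adjusted p = 0.13), or when hira-1(-) L4 replicate 1 (adjusted p = 0.11) or N2 adult replicate 2 (adjusted p = 0.051) was left out.

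For the next 2 lists the shares over all genes were 35.5% higher and 22.6% lower at L4, and 28.6% and 26.5% in adults. Of 11 genes that choose between sperm and oocyte in the germ line, 9 were higher and 1 lower at L4 (median 0.37), and 1 was higher and 4 were lower in adults (median -0.13). The gene fog-3, which commits germ cells to sperm, was the lower one, with 3.18 and 2.84 CPM in hira-1(-) L4 against 9.01 and 10.7 CPM in N2 L4 (log2 fold change -1.71, SE 0.16, adjusted p = 1.4e-06). Among the higher ones was the RNA-binding gene gld-1, which acts in both fates (0.93, adjusted p = 3.4e-08), and the sperm gene fog-1 (0.75, adjusted p = 4.6e-05). Of 9 matched genes of cohesin, another SMC complex, 8 were higher at L4 and none lower (median 0.38), and 5 were higher and none lower in adults (median 0.24). The meiotic kleisin gene rec-8 was higher at both stages (0.32 in adults, adjusted p = 0.0006, and 0.72 at L4, adjusted p = 5.5e-07).

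Markers of tissues moved between the same libraries, where 35.5% of all genes were higher and 22.6% lower in hira-1(-) at L4. At L4 all 18 oocyte and eggshell markers and 15 of 16 germ line markers were higher in hira-1(-) and none lower. Their sums were 1220 to 1230 FPKM in hira-1(-) L4 against 313 to 387 FPKM in N2 L4 for oocyte markers, and 1570 to 1590 FPKM against 952 to 960 FPKM for germ line markers. Of 13 sperm markers 7 were higher and 1 lower, with 940 to 953 FPKM in hira-1(-) and 474 to 540 FPKM in N2, where msd-1 was at 0. Of 11 body wall muscle markers 10 were lower and none higher, with 5670 to 5750 FPKM in hira-1(-) and 8450 to 9560 FPKM in N2. Of 10 epidermis markers 7 were lower and 1 higher (3910 to 4010 FPKM in hira-1(-), 8270 to 8370 FPKM in N2), of 10 intestine markers 8 were lower and 2 higher (4960 to 5100 FPKM and 4840 to 5260 FPKM), and of 10 neuron markers 3 were lower and 2 higher (271 to 273 FPKM and 242 to 248 FPKM). Most of the neuron sum was snb-1, with 169 and 163 FPKM in hira-1(-) L4 and 128 and 138 FPKM in N2 L4. In the intestine sum cpr-1 had 1010 and 1030 FPKM in hira-1(-) L4, against 384 and 468 FPKM in N2 L4. The largest part of that sum, asp-1, had 2590 and 2700 FPKM in hira-1(-) L4, against 2990 and 3300 FPKM in N2 L4. The part of these shifts in the L4 values of mix-1, dpy-26, dpy-28 and sdc-1 was not tested.

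In adults 28.6% of all genes were higher in hira-1(-) and 26.5% lower. There the oocyte markers gave 3 higher and 5 lower of 18 (6510 to 6510 FPKM in hira-1(-), 5920 to 6140 FPKM in N2), and the germ line markers 4 higher and 2 lower of 16 (1890 to 1950 FPKM and 1540 to 1630 FPKM). Sperm markers were lower for 8 of 13 with none higher (191 to 222 FPKM and 389 to 429 FPKM). Muscle markers gave 4 higher and 6 lower of 11 (3230 to 3350 FPKM and 3730 to 3960 FPKM), intestine markers 3 higher and 4 lower of 10 (6110 to 6740 FPKM and 6660 to 7720 FPKM), and neuron markers 4 higher and 2 lower of 10 (268 to 280 FPKM and 223 to 225 FPKM). Of 10 epidermis markers 8 were higher and 1 lower, although their sum was 1000 to 1010 FPKM in hira-1(-) and 2270 to 2400 FPKM in N2. Most of that sum was col-19, with 680 and 675 FPKM in hira-1(-) and 2350 and 2210 FPKM in N2. This list also differs by stage, with 8 of 10 lower in N2 adults than in N2 L4 (median log2 fold change -7.83). Most of the neuron sum was snb-1, with 212 and 204 FPKM in hira-1(-) adults and 162 and 171 FPKM in N2 adults. The part of these shifts in the adult values of xol-1, sdc-2, dpy-28, dpy-27, dpy-21 and dpy-30 was not tested.

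The chromosome that the complex acts on was then set beside the autosomes, as a description with no test. At L4 the median log2 fold change of 2283 X-linked genes was -0.19 and that of 14175 autosomal genes 0.15. Of the X-linked genes 15.7% were higher and 37.2% lower in hira-1(-), and of the autosomal genes 38.9% were higher and 20.3% lower. In adults the chromosomes were close, with medians of 0.10 on X and 0.02 on autosomes, and with 29.2% higher and 24.9% lower on X against 28.4% higher and 27.1% lower on autosomes. The gap between X and autosomes was -0.34 at L4 and 0.08 in adults. The L4 gap stands beside the higher germ line and lower muscle markers of the same libraries, and their part in it was not tested.

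**Figure D5:**
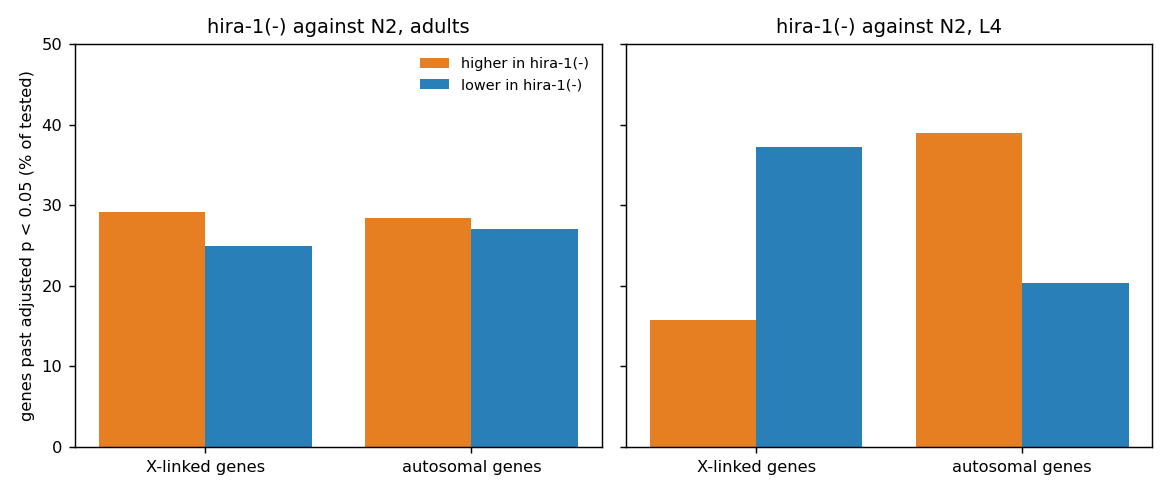
Percentage of the tested X-linked and autosomal genes that were higher (orange) or lower (blue) in hira-1(-) at adjusted p below 0.05, in adults (left) and at L4 (right), with axes from 0. At L4 lower genes outnumber higher ones on X (37.2% and 15.7%) and the reverse holds on autosomes (20.3% and 38.9%), while in adults the chromosomes are alike to within a few percentage points.

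Among named genes with a mean of at least 5 CPM, those whose log2 CPM correlated best over the 8 libraries with xol-1 were sulp-8 (Pearson r = 0.964), dhhc-10 (0.938), ccg-1 (0.935), mml-1 (0.928) and fbxa-156 (0.926), chosen from 6713 genes. The gene sulp-8 averaged 13.5 CPM in hira-1(-) adults, 6.64 in N2 adults, 10.1 in hira-1(-) L4 and 13.8 in N2 L4, so only its highest pair of groups stood in another order than in xol-1. For dpy-27 they were dhs-18 (0.951), nhr-232 (0.934), let-19 (0.926), lhgd-1 (0.906) and spp-2 (0.905). These libraries share their group structure, so the correlations are a description. Among the members, mix-1 correlated with dpy-26 at 0.980 and with dpy-27 at -0.505 over the same 8 libraries.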

How the data were processed

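Per the labels' protocols, poly(A)-selected RNA was sequenced from paired ends. The authors deposited a table of estimated counts per gene and a table of log2(FPKM + 1) values. Per the submitters' processing notes the tools were RSEM 1.2.15, Bowtie 1.0.1 and SAMtools 0.1.19, and the build was ce10; the sources used here give no strand setting. Of 18 columns in each table, 8 match a sample's label and 10 match none and were not used; 1 of the 8 was matched although it has a digit in place of a letter. Depth was 26010307 to 31174599 estimated counts per library.

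Estimated counts were rounded to whole numbers. The test was edgeR's quasi-likelihood test (edgeR 4.0.16, R 4.3.3; TMM scaling, default expression filter with a minimum count of 10, group means of all 4 groups, robust quasi-likelihood fit, Benjamini-Hochberg adjustment over 16770 genes, threshold 0.05, 4 residual degrees of freedom). The fit was tested on simulated data with known changes. CPM are counts scaled by the TMM-adjusted library size. FPKM are the deposited values with the log2 scale and the added 1 undone.

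Gene names and the chromosome of a gene come from tables of assembly WBcel235 by sequence name (44080 rows matched), not ce10, so no coordinates are given. The members and gene lists were chosen with earlier results of these data known. The named genes are the 10 members, hira-1 and, by the rule, members of 7 pathway lists, of which the text gives examples; the 5 genes most correlated with xol-1 and dpy-27 were also named. The replicate numbers did not pair the samples. Of the cohesin list, smc-1 and pqn-85 were not matched and are not used here. Alternatives were RLE scaling, library totals, other filters, DESeq2 1.42.0, only the groups compared, a replicate block, limma 3.58.1 on the deposited log2 values, and leaving out each library.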

Additional observations from a re-analysis of the deposited data

Results flagged for a closer look

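For 5 of the 10 genes the genotype difference itself differed between adults and L4 by edgeR's interaction test, where 50.4% of all genes did so (20.7% with a larger value in adults and 29.7% with a smaller one). Each value here is the log2 fold change of hira-1(-) over N2 in adults minus that at L4. It was 2.09 for xol-1 and 0.41 for dpy-27, and -0.69 for sdc-1, -0.46 for dpy-26 and -0.65 for mix-1. For hira-1 it was -0.91. Among the condensin genes outside the 10 it was -0.78 for smc-4, -0.51 for capg-1, -0.61 for capg-2, -0.70 for hcp-6 and -0.50 for kle-2. In the sex determination pathway it was -1.09 for ceh-39, 1.28 for sea-2, 2.99 for her-1, 0.72 for tra-1, -0.46 for fem-2 and -1.30 for fem-3. For the germ line genes it was -0.48 for fog-1, 1.41 for fog-3, -0.84 for gld-1 and -0.40 for rec-8, and for the H4 lysine 20 methyltransferases -0.51 for set-1 and -0.90 for set-4. The genes outside the 10 are examples and not all that passed. In the list of 11 genes that choose between sperm and oocyte, 10 had a smaller value in adults and 1 a larger one. Other genes that passed include fog-2 (-0.86), tra-3 (-0.26) and sea-1, which had no counts in N2 L4. The values of sea-2 (adjusted p = 0.02) and fog-1 (adjusted p = 0.012) depended on single libraries. That of sea-2 was lost without N2 L4 replicate 1 (adjusted p = 0.064), N2 adult replicate 1 (adjusted p = 0.054) or N2 adult replicate 2 (adjusted p = 0.081), and without a filter on low counts (adjusted p = 0.05). That of fog-1 was lost without N2 L4 replicate 1 (adjusted p = 0.056) or hira-1(-) adult replicate 2 (adjusted p = 0.051). The dpy-27 value was lost with DESeq2 (adjusted p = 0.06). The her-1 value rests on few reads, with 38 and 31 counts in hira-1(-) adults and 7 and 4 in N2 adults. Only in hira-1(-) adults did both libraries exceed the minimum count of 10, so her-1 was tested only through the group where it is high.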

How the results depend on the processing

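For the 10 members, 134 values in adults, 135 at L4, 141 of the difference between the stages, 150 of adults over L4 in N2 and 141 in hira-1(-) kept their direction and side of the threshold over the alternatives. Each member had 16 alternatives per comparison, and 15 for the difference between the stages. Of the values not kept, 8 in adults and 6 at L4 changed sign, and the rest changed side of the threshold only. With library totals 7 members were called higher and 0 lower at L4. In adults 7 members were higher and 0 lower, with 7193 genes higher and 2320 lower. The higher share of all calls was then 72.3% at L4 and 75.6% in adults, so these member counts say nothing particular to the 10 genes. With limma on the deposited log2 values 0 members were lower at either stage and 2265 genes were lower in adults. There 72.5% of all calls at L4 and 75.3% of those in adults were higher. A minimum of 1 CPM in 3 libraries gave 3 members lower at L4 and 4 with a larger difference in adults. DESeq2 gave 0 lower at L4, 3 higher in adults, 1 larger in adults and 1 lower in N2 adults than in N2 L4. Only the groups compared gave 2 lower at L4 and 2 in adults, and RLE scaling gave 3 lower in adults. At L4 the higher share of all calls was 50.9% with the 1 CPM minimum, 60.8% with DESeq2 and 50.5% with only the groups compared. In adults it was 43.2% with DESeq2, 51.4% with only the groups compared and 44.8% with RLE scaling. Leaving out a library gave 0 to 3 members lower at L4, 3 to 5 higher and 1 to 2 lower in adults, and 5 to 8 higher in hira-1(-) adults than in hira-1(-) L4. Values that changed sign in adults were, with library totals, 0.19 for sdc-3, 0.14 for dpy-26, 0.01 for dpy-30, 0.05 for capg-1 and 0.01 for set-4, with limma 0.15, 0.14, 0.01, 0.05 and 0.01, and for sdc-3 0.02 without hira-1(-) adult replicate 2 and 0.11 without N2 adult replicate 2 (range over left-out libraries -0.18 to 0.11). At L4 they were dpy-30 at 0.10 (library totals), 0.09 (limma) and 0.01 (without hira-1(-) L4 replicate 2, range -0.18 to 0.01), dpy-27 at 0.00 (limma), sdc-3 at -0.03 (without N2 L4 replicate 1, range -0.03 to 0.27) and dpy-21 at -0.01 (without N2 L4 replicate 2, range -0.01 to 0.32). For adults over L4 in N2 they were sdc-2 at 0.02 (RLE), 0.03 (DESeq2) and 0.01 (without N2 L4 replicate 2, range -0.32 to 0.01), and dpy-21 at -0.07 (library totals), -0.03 (1 CPM), -0.06 (limma) and -0.08 (without N2 L4 replicate 2, range -0.08 to 0.11); in hira-1(-), dpy-27 was -0.02 with library totals and with limma. The cause was not tested. The replicate numbers did not pair the samples (correlations of deviations -0.00 to 0.07), and with the replicate block 4810 genes were higher and 4421 lower in adults and 5955 and 3777 at L4, and the counts of members called did not change. Fitting only the groups compared gives no difference between the stages, and levels in CPM are not per length and gave no order of genes. With 2 libraries a group and 4 residual degrees of freedom, small changes are limited by the number of libraries, and xol-1 and her-1 also by their counts.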
